A study of Mus musculus with 15 samples.

Results

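The 10 genes described here, P2ry12, P2ry13, Gpr34, Cx3cr1, Csf1r, Siglech, Selplg, Tmem119, Olfml3 and Sall1, are genes that microglia express in the undisturbed brain. They were taken by name from the deposited tables, in which all 10 were found among 29659 genes. Their values come from 15 libraries, each made from polyA RNA of bulk thalamus that was dissected from the right hemisphere of 4.5-month-old mice after perfusion with PBS. Xist was at most 0.31 and the Y-linked gene Ddx3y at least 10.34 in every library, so all 15 were read as male. All strains were bred to carry human APOE4 as a knock-in on both alleles. The 5EL mice (n = 5) also carried the 5xFAD transgenes, which are driven in neurons by the Thy1 promoter and lead to amyloid plaques, with Lilrb4a intact. The 5ELKO mice (n = 4) carried the same alleles and lacked Lilrb4a on both chromosomes (Lilrb4a-/-), and the ELKO mice (n = 3) lacked Lilrb4a without carrying 5xFAD. The EL mice (n = 3) were read from the naming of the other strains as having APOE4, intact Lilrb4a and no 5xFAD. The deletion was carried by the whole animal and was not restricted to microglia. Libraries of 5EL and 5ELKO each carry a sample number of their own and, per the methods, came from randomly selected mice of both strains. The labels name no animal for any library, so p-values measure the spread between libraries, which may in part be technical.

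Microglia are the resident macrophages of the brain. In the undisturbed brain they survey the tissue with fine processes and depend on CSF1R signaling for survival and on TGF-beta for their identity. The genes above mark this homeostatic state. Near amyloid plaques, microglia are known to lower many of these genes while raising a disease-associated program with Trem2, Cst7, Itgax and Clec7a, and the number of microglia grows. Lilrb4a encodes an inhibitory receptor of myeloid cells and is itself a gene of that program. Bulk tissue mixes all cell types, so fewer cells of a type and less RNA per cell cannot be told apart.

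The deposited values are on a log2 scale with no counts, so the reads behind a gene's value cannot be read from them. Total reads are listed in the supplement for 5EL and 5ELKO and were not used here. Values of low genes were drawn together by the transform, with a median within-group SD of 0.00258 for genes with a mean below 0. The 10 genes lay between 7.03 and 10.78, where the scale does not compress in this way, with group SDs from 0.03 to 0.24. The 7 libraries whose mice had the Lilrb4a deletion held the 7 lowest Lilrb4a values, none over 2.33, while 8 libraries with the gene intact began at 2.34. Mouse Apoe, which a human knock-in replaces, was 10.90 in the library labelled ELKO replicate 1 and 5.92 to 6.37 in the other 14, so this library goes against the APOE4 label. For the members, differences over all libraries that it moves by over 1.5 times, or calls that it changes, are also given without it. Differences of other genes, such as Il34, Hmgxb3 and Cask, and of other lists include this library and may depend on it. A further pair of libraries, 5EL replicate 1 and ELKO replicate 2, stood apart with Ttr, a choroid plexus transcript, at 13.71 and 14.66 against at most 10.31 elsewhere. Aif1, the gene of the microglial marker IBA1, was present in every library, from 5.35 to 5.62.

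The members lie on 7 chromosomes, and 2 pairs are neighbours in GRCm38. P2ry12 (chromosome 3, 59216272 to 59262871, minus strand) and P2ry13 (chromosome 3, 59207892 to 59210882, minus strand) are 5389 bases apart, both inside Med12l on the opposite strand. Tmem119 (chromosome 5, 113793729 to 113800516, minus strand) and Selplg (chromosome 5, 113818536 to 113832644, minus strand) are 18019 bases apart with 0 protein-coding genes between them. RefSeq promoter entries (GRCm38.p6) were used for 6 of the 10 members, and none was used for Tmem119, Gpr34, Csf1r and Selplg. This does not show that a promoter entry is lacking for Csf1r or the other genes left out. The motif counts below cover the 6 members only. The 250 bases before a start are shown for the neighbouring pair P2ry12 and P2ry13, whose differences with 5xFAD were small, and for Cx3cr1 and Sall1, which had larger ones. They are chr3:59262986-59263235, chr3:59210883-59211132, chr9:120068297-120068546 and chr8:89044163-89044412, all on the minus strand and printed 5′ to 3′, with capitals marking GAGGAA, letters bound by the myeloid factor PU.1.
P2ry12: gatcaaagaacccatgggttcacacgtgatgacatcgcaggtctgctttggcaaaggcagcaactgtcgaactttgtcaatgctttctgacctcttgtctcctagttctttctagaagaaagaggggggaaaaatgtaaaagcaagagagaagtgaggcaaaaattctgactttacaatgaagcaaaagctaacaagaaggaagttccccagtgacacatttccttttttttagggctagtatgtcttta
P2ry13: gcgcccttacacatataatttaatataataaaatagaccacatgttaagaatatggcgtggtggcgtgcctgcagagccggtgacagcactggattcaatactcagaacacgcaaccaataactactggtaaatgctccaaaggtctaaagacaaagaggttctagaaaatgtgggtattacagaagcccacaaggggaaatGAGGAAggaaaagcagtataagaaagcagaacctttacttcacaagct
Cx3cr1: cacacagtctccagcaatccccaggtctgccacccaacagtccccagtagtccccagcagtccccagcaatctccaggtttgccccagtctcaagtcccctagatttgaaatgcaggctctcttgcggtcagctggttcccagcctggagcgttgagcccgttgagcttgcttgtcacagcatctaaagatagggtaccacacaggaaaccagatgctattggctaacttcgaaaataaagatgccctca
Sall1: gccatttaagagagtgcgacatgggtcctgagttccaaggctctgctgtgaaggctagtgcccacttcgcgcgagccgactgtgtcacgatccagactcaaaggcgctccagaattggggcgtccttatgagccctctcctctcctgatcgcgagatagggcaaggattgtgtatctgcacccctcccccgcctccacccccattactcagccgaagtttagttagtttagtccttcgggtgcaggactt
On either strand, GAGGAA stood in 1 of the 6 members, P2ry13, 48 bases before the start. Counted by entry, that was 1 of the 8 entries of these members, and 23.25% of the 32851 promoter entries cut to the same length. The letters CAGAC, bound by SMAD proteins, which carry the TGF-beta signal, stood in 4 of the 6 members, including P2ry12, Cx3cr1 and Sall1 but not P2ry13. Counted by entry, that was 4 of the 8 entries of these members, and 42.19% of all promoter entries. Both motifs were chosen after the sequences had been seen, and a match is a description of the letters only.

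Levels between genes were compared per kilobase of exon, as the log2 value less the log2 of the exonic length in kilobases. Csf1r, the receptor for CSF1 and IL-34 on which microglia depend, was the highest of the 10 in all 15 libraries, with a mean level of 7.98 per kilobase. Tmem119 (7.25), a membrane protein used as a marker of brain microglia, Cx3cr1 (7.24), the fractalkine receptor, and P2ry12 (7.20), a receptor for ADP, followed and did not differ from each other beyond their spread. Selplg, which encodes the P-selectin ligand PSGL-1, came next at 6.79, below P2ry12 and above the next gene in all 15 libraries. Gpr34 (6.32), a lysophosphatidylserine receptor, Sall1 (6.24), P2ry13 (5.99) and Siglech (5.88) were neighbours whose order was not the same in every library. Olfml3, a secreted glycoprotein, was the lowest at 5.47 and lay below Siglech in all 15 libraries. The length joined all annotated exons of a gene, 6161 bases for Olfml3 and 3383 for Siglech, whichever transcripts microglia use. On the deposited scale Olfml3 was above Siglech, with means of 8.13 and 7.68 in 5EL, so the order depends on the length used.

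The first question was whether the homeostatic genes differ in level when amyloid is present. Averaged over both Lilrb4a genotypes, all 10 differences between mice with and without 5xFAD were above 0, with a median of 0.13 on the log2 scale, where 49.7% of all 15804 genes tested were above 0 and their median was -0.0006. Csf1r (0.23, standard error 0.06), Sall1 (0.22, standard error 0.04), Cx3cr1 (0.20, standard error 0.06) and Olfml3 (0.20, standard error 0.08) had a nominal limma p under 0.05, which makes 4 higher and 0 lower members. Over all genes tested, 3.56% were higher and 3.01% lower at this threshold. After Benjamini-Hochberg adjustment over all genes, 0 members and 0 of the 15804 genes reached an adjusted p under 0.05 in limma, and the members with the largest differences had adjusted p-values of 0.653 for Sall1 and 0.693 for the other 3. These 4 differences were small in size, from 1.15-fold for Olfml3 to 1.18-fold for Csf1r. P2ry12, P2ry13 and Tmem119 had the smallest differences of the 10, at 0.03, 0.06 and 0.00 on the log2 scale. That of Tmem119 was 0.008 without ELKO replicate 1. Without ELKO replicate 1, the median was 0.10, 9 of the 10 differences were above 0 (P2ry12 was at -0.008) and 3 members were higher, since Olfml3 (0.19) no longer passed, and without both choroid plexus-high libraries the count was also 3 for the same reason.

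**Figure D1:**
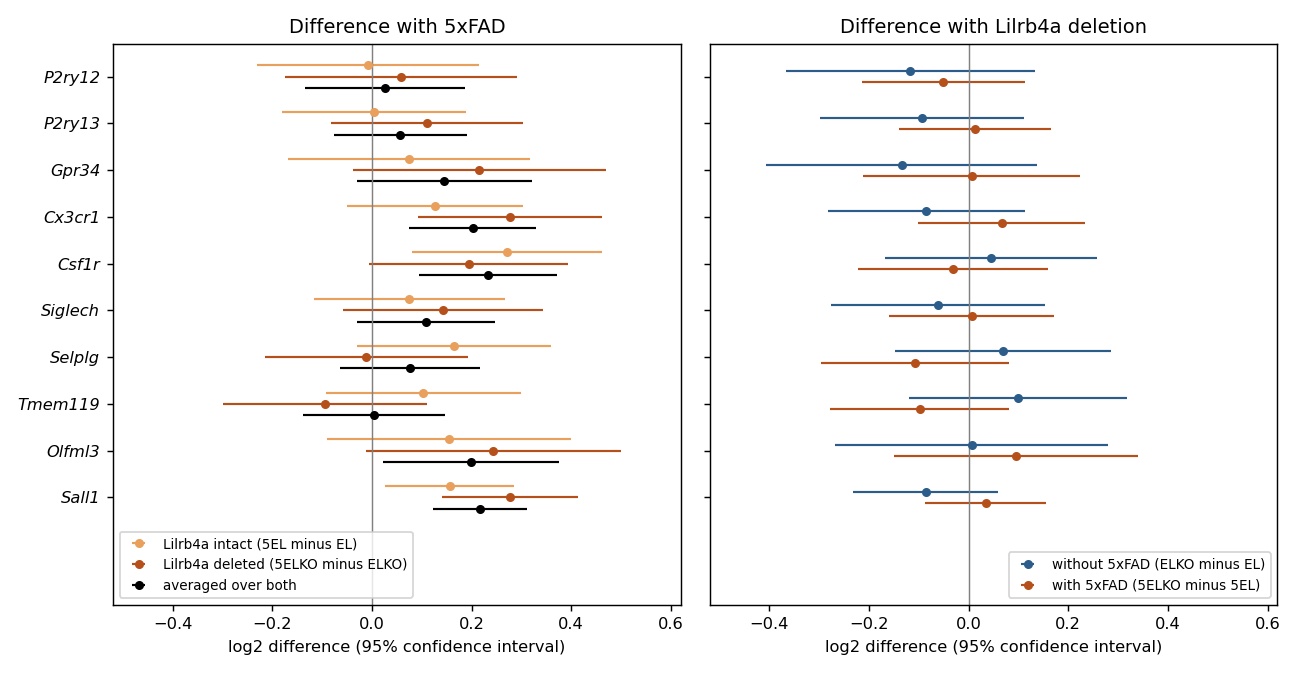
Log2 differences of the 10 genes with 95% confidence intervals from limma: left, mice with against mice without 5xFAD for each Lilrb4a genotype and averaged; right, Lilrb4a deletion against intact for each 5xFAD state. On the left the averaged intervals of Csf1r, Sall1, Cx3cr1 and Olfml3 lie above 0, and on the right every interval includes 0.

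Among the receptors for nucleotides and lipids, P2ry12, which guides microglial processes towards ADP, was 8.43, 8.57 and 8.79 in the EL libraries and 8.34, 8.37 and 8.72 in the ELKO libraries. In mice with 5xFAD it was 8.55, 8.50, 8.69, 8.68 and 8.51 in 5EL and 8.51, 8.40, 8.48 and 8.76 in 5ELKO. The 4 groups overlapped, and the highest and lowest values both came from mice without 5xFAD. The averaged difference was 0.03 (95% confidence interval -0.14 to 0.19; exact permutation p = 0.741), so the data allow a change of either sign within these bounds. P2ry13, a related ADP receptor, ranged from 7.03 in ELKO replicate 1 to 7.48 in 5ELKO replicate 4, with a difference of 0.06 (95% confidence interval -0.08 to 0.19; exact permutation p = 0.411). This difference rested on ELKO replicate 1: without that library it was 0.005 (standard error 0.06), and between 5ELKO and ELKO it was 0.005 (standard error 0.09) in place of 0.11. Med12l, the gene around this pair, shares 9 exon bases with P2ry12 and had a difference of 0.17 (standard error 0.10; adjusted p = 0.693 in limma).

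Gpr34 (X chromosome, 13632089 to 13640858, plus strand) was 7.19, 7.31 and 7.58 in EL, 7.11, 7.24 and 7.33 in ELKO, 7.59, 7.40, 7.37, 7.47 and 7.35 in 5EL, and 7.66, 7.23, 7.23 and 7.64 in 5ELKO. The 5ELKO libraries split into a high and a low pair, and the groups overlapped. Its averaged difference with 5xFAD was 0.15 (standard error 0.08; exact permutation p = 0.146), and it reached a nominal p under 0.05 in 3 of the 15 fits that left out 1 library. The gene lies inside Cask on the opposite strand with 0 exon bases in common, and Cask had a difference of 0.01 (standard error 0.03; adjusted p = 0.947 in limma).

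Cx3cr1 (chromosome 9, 119901616 to 120069879, minus strand), through which microglia sense neuronal fractalkine, was 9.39, 9.41 and 9.20 in EL and 9.20, 9.25 and 9.28 in ELKO. With 5xFAD it was 9.52, 9.44, 9.23, 9.61 and 9.49 in 5EL and 9.46, 9.43, 9.50 and 9.70 in 5ELKO. The lowest 5ELKO library was higher than the highest ELKO library, so these groups did not overlap, whereas 5EL replicate 3 fell among the EL libraries. The averaged difference of 0.20 had a nominal limma p of 0.00411 and an exact permutation p of 0.00918, where 0.00051 is the smallest this design allows. Between 5ELKO and ELKO the difference was 0.28 (standard error 0.09, nominal limma p = 0.00579), with an exact permutation p of 0.0286, the smallest that 4 against 3 libraries can give. Without ELKO replicate 1 the difference between 5ELKO and ELKO was 0.26 (standard error 0.10), still with a nominal limma p under 0.05. Between 5EL and EL it was 0.13 (standard error 0.08; exact permutation p = 0.232). Cx3cl1, which encodes fractalkine, had an averaged difference of -0.08 (standard error 0.06; adjusted p = 0.703 in limma).

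Csf1r (chromosome 18) was 10.41, 10.30 and 10.32 in EL and 10.46, 10.33 and 10.38 in ELKO. It was 10.70, 10.47, 10.51, 10.75 and 10.65 in 5EL and 10.72, 10.34, 10.50 and 10.78 in 5ELKO. Every 5EL library lay above every EL library, while 5ELKO replicate 2 fell among the ELKO libraries. The difference between 5EL and EL was 0.27 (standard error 0.09, nominal limma p = 0.00825; exact permutation p = 0.0357), and that between 5ELKO and ELKO was 0.19 (standard error 0.09, nominal limma p = 0.0553; exact permutation p = 0.2). The averaged difference had an exact permutation p of 0.00714 and a nominal limma p of 0.00259. Of its exon bases, 15.12% are shared with Hmgxb3 on the opposite strand, where reads of both genes cannot be told apart because strand was not used in counting; Hmgxb3 itself had a difference of 0.03 (standard error 0.05; adjusted p = 0.846 in limma). Csf1, which encodes a ligand of this receptor, had an averaged difference of 0.19 (standard error 0.05; adjusted p = 0.693 in limma, with a nominal p under 0.05), and Il34, which encodes the other ligand, one of 0.03 (standard error 0.05; adjusted p = 0.866).

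Siglech (chromosome 7, 55768178 to 55778925, plus strand), a sialic acid-binding surface receptor, ranged from 7.45 in ELKO replicate 2 to 7.88 in 5ELKO replicate 4, and its averaged difference of 0.11 had an exact permutation p of 0.133. Selplg was 8.78, 8.79 and 8.85 in EL and 9.04, 8.81, 8.95, 9.14 and 8.92 in 5EL, so that 4 of 5 5EL libraries lay above every EL library, with a difference of 0.17 (standard error 0.09; exact permutation p = 0.0714). In mice without Lilrb4a it was 8.91, 8.74 and 8.98 in ELKO and 9.02, 8.66, 8.77 and 9.01 in 5ELKO, and these groups overlapped with a difference of -0.01 (exact permutation p = 1). That difference was 0.005 (standard error 0.11) without ELKO replicate 1.

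Tmem119 was 8.47, 8.28 and 8.46 in EL, 8.52, 8.37 and 8.62 in ELKO, 8.69, 8.36, 8.62, 8.56 and 8.29 in 5EL, and 8.41, 8.29, 8.43 and 8.49 in 5ELKO. The groups overlapped, and values from 8.29 to 8.69 occurred within 5EL alone. The difference with 5xFAD was 0.10 with Lilrb4a intact (exact permutation p = 0.411) and -0.09 with Lilrb4a deleted (exact permutation p = 0.314). Olfml3 (chromosome 3, 103722222 to 103738001, minus strand) was 7.86, 7.98 and 8.10 in EL, 7.96, 7.97 and 8.02 in ELKO, 8.13, 7.96, 7.90, 8.39 and 8.27 in 5EL, and 8.22, 8.06, 8.11 and 8.51 in 5ELKO. Every 5ELKO library lay above every ELKO library, whereas 5EL and EL overlapped. Its averaged difference had a nominal limma p of 0.0298 and an exact permutation p of 0.0408, and 5 of the 15 fits that left out 1 library put the nominal p above 0.05. With the replicate number as a block, the averaged difference was 0.084 (standard error 0.06) and that between 5EL and EL 0.02 (standard error 0.12), and the nominal p under 0.05 was lost.

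Sall1 (chromosome 8, 89027235 to 89044162, minus strand), a transcription factor that maintains microglial identity, was 8.58, 8.62 and 8.45 in EL and 8.53, 8.44 and 8.42 in ELKO. It was 8.74, 8.68, 8.55, 8.77 and 8.80 in 5EL and 8.71, 8.77, 8.72 and 8.76 in 5ELKO. The 4 5ELKO libraries lay close together, with an SD of 0.03, and above all libraries of mice without 5xFAD, while 5EL replicate 3 was the 1 library with 5xFAD that overlapped them. The averaged difference was 0.22 (95% confidence interval 0.12 to 0.31), with a nominal limma p of 0.000189, rank 3 of the 15804 genes, and an exact permutation p of 0.00153. It was 0.28 between 5ELKO and ELKO (nominal limma p = 0.00058; exact permutation p = 0.0286, the smallest possible) and 0.16 between 5EL and EL (nominal limma p = 0.0221; exact permutation p = 0.0893). Without ELKO replicate 1 the averaged difference was 0.23 (standard error 0.05), and without both choroid plexus-high libraries it was 0.21 (standard error 0.05), each with a nominal limma p under 0.05.

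**Figure D2:**
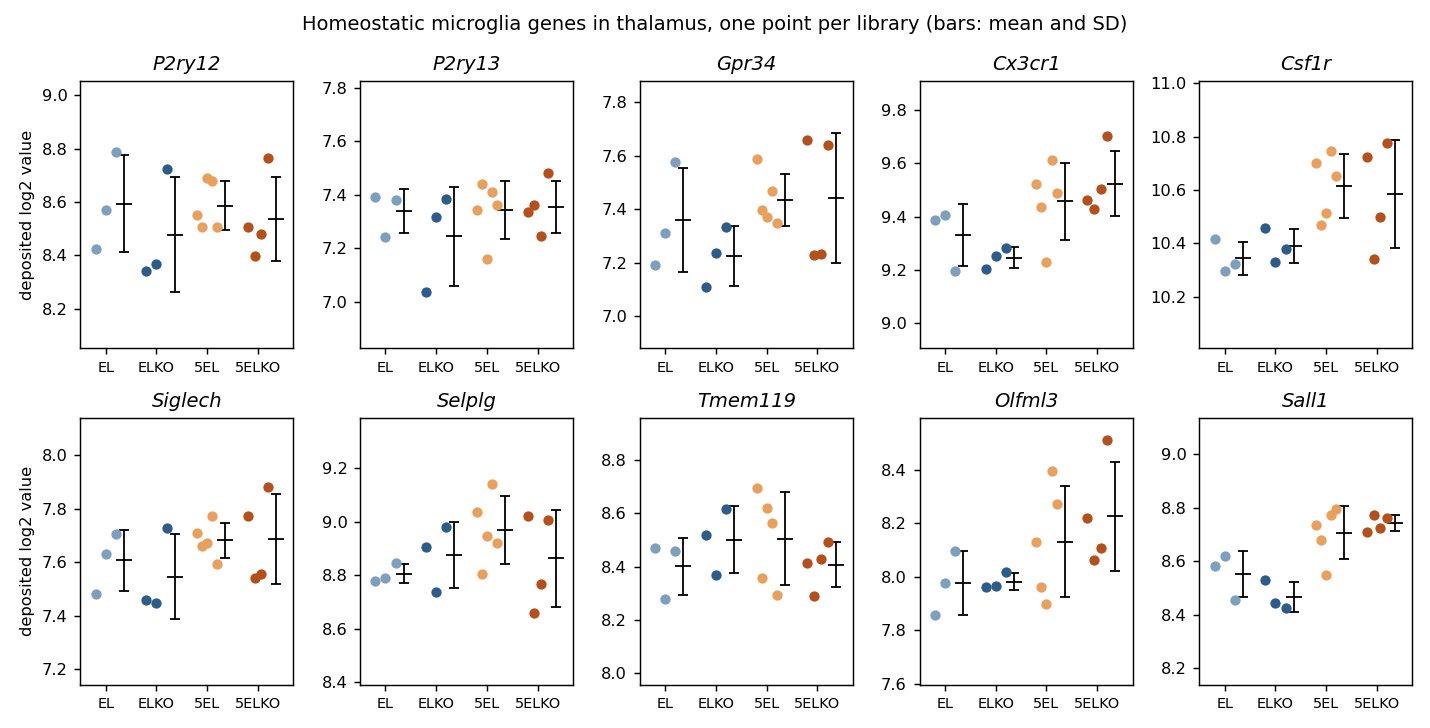
Deposited log2 value (vertical axes, each spanning the same range of log2 units) of each of the 10 genes in the 15 libraries, by group; each point is 1 library and the bars give the mean and SD. Sall1, Cx3cr1 and Olfml3 are higher in every 5ELKO than in every ELKO library, and Csf1r is higher in every 5EL than in every EL library.

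Counted by genotype, 2 members, Csf1r and Sall1, were higher in 5EL than in EL at a nominal p under 0.05 and 0 were lower, where 3.82% of all genes were higher and 3.88% lower. Between 5ELKO and ELKO, 2 members, Cx3cr1 and Sall1, were higher and 0 lower, where 1.48% of all genes were higher and 0.892% lower. The groups did not overlap for 1 member between 5EL and EL, where 1.68% of all genes were higher and 1.59% lower in this way, and for 3 members between 5ELKO and ELKO, where the shares of all genes were 1.78% and 1.61%. The first of these counts rested in part on single libraries: without 5EL replicate 5, or without EL replicate 3, Sall1 no longer had a nominal p under 0.05 and the count was 1. Without 5ELKO replicate 2, or without 5ELKO replicate 3, the second count was 5. In limma, 0 members and 0 genes had an adjusted p under 0.05 in either comparison. Between 5EL and EL, 5 of 10 genes of a thalamus list were lower (median -0.18) and 2 of 3 erythroid genes were lower (median -1.20) at a nominal p under 0.05, which was not tested as a part of the members' values. The erythroid list mean was highest in EL replicate 3, at 6.93 against 5.15 and 5.90 in the other EL libraries.

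The comparison the study itself made is that of Lilrb4a deletion in mice with amyloid. The study's quality-control list names 5 libraries of each of these groups, whereas 4 of 5ELKO were used here. Between 5ELKO and 5EL, 0 members had a nominal limma p under 0.05 in either direction, where 1.53% of 15743 genes were higher and 0.959% lower, and the groups overlapped for all 10 members, where 0.603% of all genes were higher and 0.457% lower without overlap. The differences ran from -0.11 for Selplg (95% confidence interval -0.30 to 0.08) and -0.10 for Tmem119 (-0.28 to 0.08) to 0.09 for Olfml3 (-0.15 to 0.34), with a median of 0.01 that ran from -0.06 without 5ELKO replicate 4 to 0.04 without 5ELKO replicate 3. No exact permutation p was below 0.318, where 5 against 4 libraries can reach 0.00794. Sall1 differed by 0.03 (95% confidence interval -0.09 to 0.16), the narrowest interval of the 10, and P2ry12 by -0.05 (-0.21 to 0.11). Across all genes, 3 (0.0191%) had an adjusted p under 0.05 in limma and 0 of them were members. The outermost bounds of the 10 intervals were -0.30 for Selplg and 0.34 for Olfml3. Of 6 tested border macrophage genes, 3 had a nominal limma p under 0.05 and were lower in 5ELKO (Mrc1, F13a1 and Cd163, from -0.26 to -0.16), and their part in the values of the members was not tested.

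Without amyloid, the deletion again left 0 members with a nominal limma p under 0.05, where 1.05% of all genes were higher and 1.30% lower in ELKO than in EL, and the groups overlapped for all 10 members, where 2.06% of all genes were higher and 2.53% lower without overlap. Differences ran from -0.13 for Gpr34 to 0.10 for Tmem119, with a median of -0.07. Without ELKO replicate 1 the median was -0.003, Gpr34 was at -0.076, P2ry12 at -0.048 in place of -0.12, Siglech at -0.017 in place of -0.06, Csf1r at 0.011 in place of 0.05, and P2ry13 at 0.012 in place of -0.09. The smallest exact permutation p was 0.2, for Sall1, and 3 against 3 libraries cannot go below 0.1. In the same comparison all 3 tested erythroid genes were lower in ELKO at a nominal limma p under 0.05, with a median of -1.52. Their list mean was 5.15, 5.90 and 6.93 in EL replicates 1 to 3, against 4.78 to 4.91 in ELKO. All 12 choroid plexus genes had differences above 0, with a median of 0.72. Their list mean was 9.03 in ELKO replicate 2, against 6.79 and 6.52 in the other ELKO libraries and 6.45 to 6.86 in EL. The part of these genes in the values of the members was not tested. Averaged over mice with and without 5xFAD, the deletion gave 0 members a nominal p under 0.05, where 0.955% of all genes were higher and 0.848% lower, and the differences lay between -0.08 for P2ry12 (-0.05 without ELKO replicate 1) and 0.05 for Olfml3. Whether the difference with 5xFAD itself depends on Lilrb4a was tested by the interaction, which had 0 members at a nominal p under 0.05, where 1.50% of all genes were higher and 1.23% lower. The interaction was largest in size for Tmem119 at -0.20 (95% confidence interval -0.48 to 0.09) and Selplg at -0.18 (-0.46 to 0.11), and was 0.15 for Cx3cr1 (-0.10 to 0.41) and 0.12 for Sall1 (-0.07 to 0.31). Without ELKO replicate 1 the median interaction of the members was 0.01 in place of 0.08, and that of P2ry13 was 0.001 in place of 0.11. With the replicate number as a block, Tmem119 passed a nominal limma p under 0.05 between 5ELKO and 5EL (-0.15, standard error 0.07) and in the interaction (-0.25, standard error 0.08), with adjusted p-values of 0.9997 and 0.9994 in limma, but the numbers were not found to pair these groups.

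The members were then set beside other lists. All lists were chosen with earlier results of these data known, and no list was tested as a whole. Of 29 tested genes of a pan-microglia and myeloid list, which marks the cells whatever their state, 29 had an averaged difference with 5xFAD above 0 and 20 had a nominal limma p under 0.05, with a median of 0.18 and with Laptm5 (0.38), Tyrobp (0.37) and Ctss (0.32) as the largest. Of 29 tested genes of a disease-associated list, 20 were higher and 1, Igf1 (-0.20), was lower, with a median of 0.17; Cst7 (0.90), Itgax (0.61) and Trem2 (0.52) were the largest. A further 29 tested homeostatic genes had a median of 0.05, with 4 higher and 2 lower. Fcrls (0.44) and Tgfbr1 (0.16) were among the higher ones, and Lrrc3 (-0.14) and Mef2c (-0.11), a transcription factor that neurons also express, the 2 lower ones. Among 17 ligands and regulators of the members, 3 were higher: Tgfbr2 (0.24) and Tgfb1 (0.18) of the TGF-beta pathway, and Csf1. Border macrophage genes gave 0 of 6 tested, and the markers Pf4 and Ms4a7 were below the level needed for testing. Blood leukocyte genes gave 0 of 2 tested, with the monocyte gene Ccr2 also below that level.

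**Figure D3:**
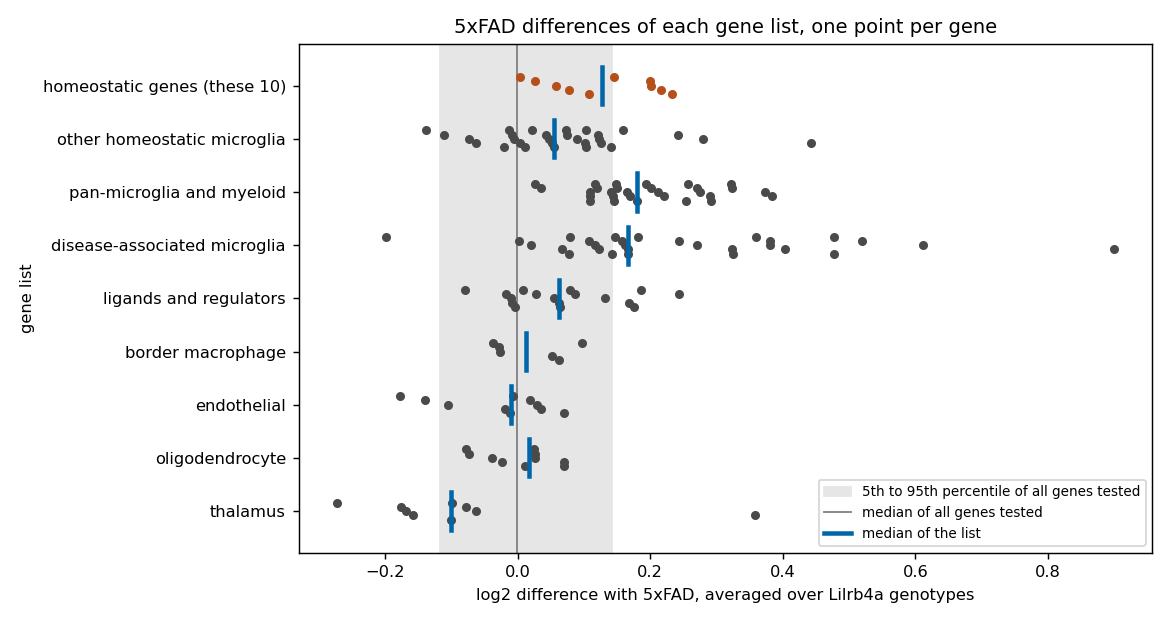
Log2 difference with 5xFAD averaged over Lilrb4a genotypes (horizontal axis) for each tested gene (points) of 9 lists (vertical axis), with the median of each list and the median and the 5th to 95th percentile of all genes tested. The 10 homeostatic genes lie from 0.00 to 0.23, with a median of 0.13, below the medians of the pan-microglia (0.18) and disease-associated (0.17) lists.

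Because the pan-microglia genes were higher with 5xFAD, each library was also read relative to its mean over that list. This subtracts the same amount from the difference of every gene, microglial or not. Relative to the list, the averaged 5xFAD differences of the members had a median of -0.07. At a nominal limma p under 0.05, 0 members were higher and 1 was lower. The share of all genes called in this fit was not counted, so these counts have no background beside them. Since every gene was shifted by the same amount, the adjusted p-values below do not set a member apart from other genes. The lower one was Tmem119 at -0.19 (standard error 0.09; adjusted p = 0.0735 in limma), followed by P2ry12 at -0.17 (standard error 0.09; adjusted p = 0.0989), P2ry13 at -0.14 (standard error 0.09; adjusted p = 0.186) and Selplg at -0.12 (standard error 0.08; adjusted p = 0.167). Csf1r (0.04), Sall1 (0.02), Cx3cr1 (0.00) and Olfml3 (0.00) then differed little from 0, each with a standard error of 0.07 to 0.09. On the deposited scale these 4 genes had differences of 0.20 to 0.23, so their calls depend on whether the level is read as deposited or against the other microglial genes. Tmem119 and P2ry12 differed by 0.00 and 0.03 on the deposited scale, so their lower values here follow from the subtraction. Whether this list tracks the number of microglia was not tested.

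Libraries with 5xFAD differed among themselves in how far the disease-associated genes were raised. The mean over this list was 8.44, 8.10, 8.26, 8.40 and 8.38 in 5EL and 8.47, 8.06, 8.17 and 8.48 in 5ELKO, against 8.02 to 8.11 in the 6 libraries without 5xFAD. Of the 5xFAD libraries, 5EL replicate 2 and 5ELKO replicate 2 lay within the range of mice without 5xFAD. The upper end of that range, 8.11, was ELKO replicate 1, the library with high mouse Apoe. The next highest was ELKO replicate 2 at 8.07. Without ELKO replicate 1, 5EL replicate 2 therefore lay above the range and 5ELKO replicate 2 within it. Across these 9 libraries, 10 relations between a member and the list mean were computed, chosen after the values had been seen. Csf1r followed the list most closely (Pearson r = 0.968, exact permutation p = 5.24e-05, adjusted p over the 10 relations 0.000524; Spearman rho = 0.95, exact permutation p = 0.000353, adjusted p 0.00353). Selplg (r = 0.881, exact permutation p = 0.00181, adjusted p 0.00905; rho = 0.8, exact permutation p = 0.0138, adjusted p 0.0346) came second. Gpr34 and Siglech had r of 0.831 and 0.762 (exact permutation p = 0.00874 and 0.0197, adjusted p 0.0291 and 0.0492), and both had a rho of 0.867 (exact permutation p = 0.00451, adjusted p 0.015).

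At the other end, Sall1 and P2ry13 had r of 0.227 each (exact permutation p = 0.617 and 0.562). Sall1 was as high in 5ELKO replicate 2 (8.77), where the disease-associated list was lowest, as in 5ELKO replicate 4 (8.76), where it was highest. P2ry12 had an r of 0.575 (exact permutation p = 0.109), Cx3cr1 one of 0.50 (exact permutation p = 0.178) and Tmem119 one of 0.462 (exact permutation p = 0.207), while that of Olfml3 was 0.709 (exact permutation p = 0.0359, adjusted p 0.0718). Spearman rho was 0.7 for P2ry12 (exact permutation p = 0.0433, adjusted p 0.0721) and 0.667 for Cx3cr1 (exact permutation p = 0.0589, adjusted p 0.0841). For Olfml3 rho was 0.75 (exact permutation p = 0.0255, adjusted p 0.051) and for Tmem119 0.5 (exact permutation p = 0.178). Without 5ELKO replicate 2 and 5EL replicate 2, the libraries farthest from the median of the list mean, r was 0.951 for Csf1r, 0.759 for Selplg, 0.901 for Gpr34 and 0.78 for Siglech. It fell to 0.276 for P2ry12 and 0.0481 for Tmem119, and became 0.785 for P2ry13, whose value therefore rests on those libraries. Within each genotype there were too few libraries for a test. Csf1r had an r of 0.928 over the 5EL libraries and 0.991 over the 5ELKO libraries, and Selplg had 0.802 and 0.9975. For Gpr34 these were 0.512 and 0.976, and for Siglech 0.296 and 0.957, so the relation of these 2 genes was weaker within 5EL. The list mean and the members come from the same libraries and share their depth and microglial content, which was not adjusted for.

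**Figure D4:**
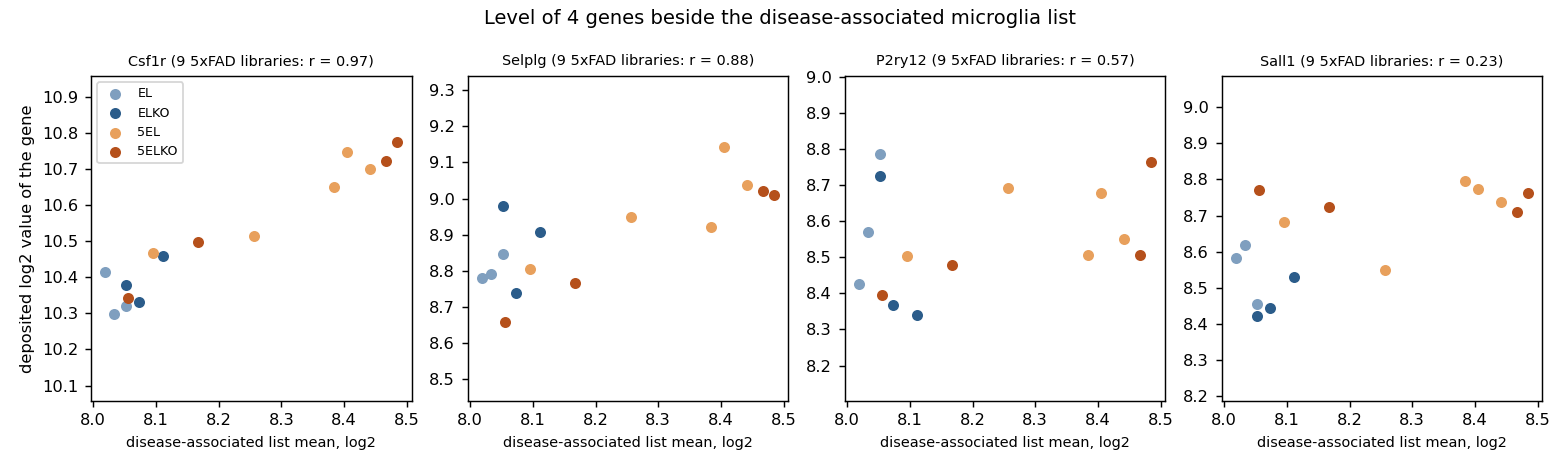
Deposited log2 value of Csf1r, Selplg, P2ry12 and Sall1 (vertical axes) against the mean log2 value of the disease-associated microglia list (horizontal axis), 1 point per library, coloured by group. Csf1r increases with the list over the 9 libraries with 5xFAD (r = 0.968), whereas Sall1 is about as high in the library with the lowest list mean (8.77) as in that with the highest (8.76).

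Each member was also compared with the mean profile of the other 9 members over all 15 libraries, as a description. Siglech followed the others most closely (r = 0.866), then Csf1r (0.802) and Olfml3 (0.80), and Tmem119 least (0.257). With each gene centred within its group, so that group differences no longer count, Olfml3 (0.807), Siglech (0.798) and Csf1r (0.755) still led, while Sall1 went from 0.447 to 0.0448. Sall1 thus varied with the others between groups and hardly within them. The genes outside the 10 whose values were most like the mean profile of the members over the 15 libraries were Ly86 (r = 0.952), Cd68 (0.907), C1qb (0.906), Ctss (0.901) and Hcls1 (0.891). Ly86, C1qb and Ctss belong to the pan-microglia list and Cd68, a lysosomal protein of phagocytes, to the disease-associated list. Centred within groups, the order was Ly86 (0.927), C1qb (0.897), Axl (0.891), Cd68 (0.886) and Ctsl (0.869).

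Single libraries were high or low for several members at once. Within 5ELKO, replicate 4 was the highest of its group for 7 of the 10 members and replicate 2 the lowest for 8. The libraries 5EL replicate 4 and 5ELKO replicate 4 were above the mean of all 15 libraries for all 10 members, and ELKO replicate 2 for none.

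**Figure D5:**
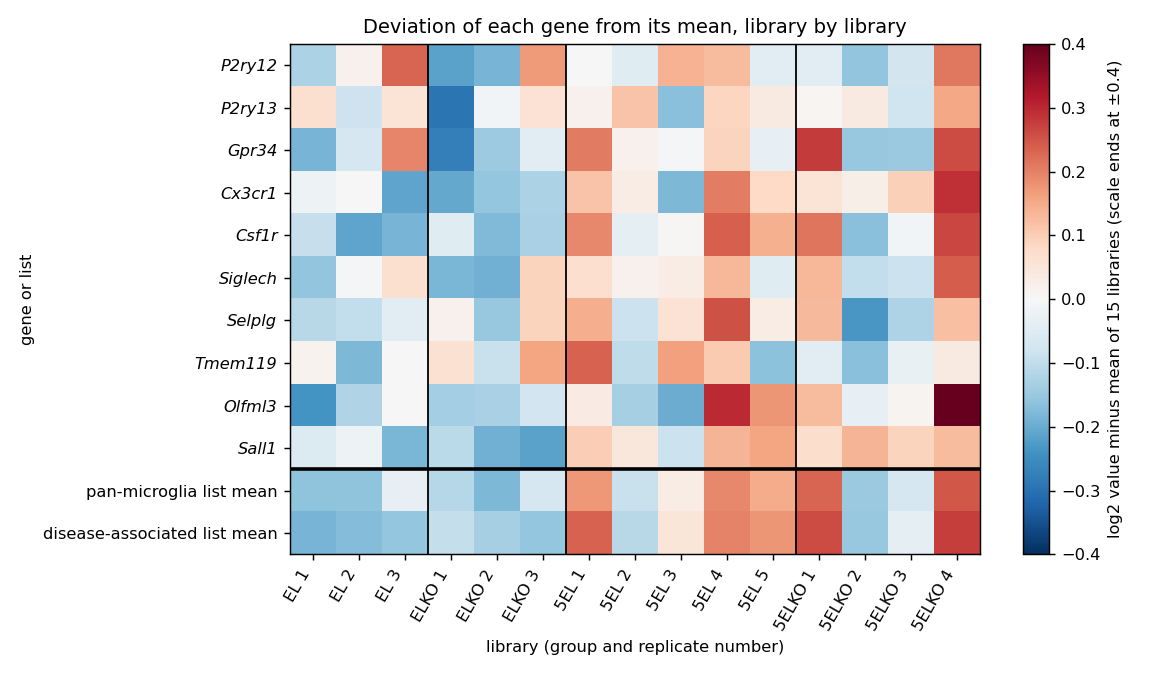
Deviation of each gene's log2 value from its mean over the 15 libraries (colour), by library (columns, ordered by group and replicate) and gene (rows), with the means of the pan-microglia and disease-associated lists below the line. The libraries 5EL 4 and 5ELKO 4 are above the mean for all 10 genes, and Olfml3 in 5ELKO 4 lies past the end of the colour scale.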

How the data were processed

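PolyA RNA from the thalamus was sequenced in paired reads, 1 library per sample. According to the methods and the submitters' processing notes, trimming used Trimmomatic 0.39, alignment to GRCm38 used HISAT2 2.2.1, and the authors counted read pairs over exons of GENCODE M21 genes with featureCounts 2.0.3, ignoring strand. The submitters' processing notes also name DESeq2 1.38.3 among the authors' tools. The deposited files hold 1 value per gene and library on a log2 scale, from -2.27 to 18.98 over 29659 genes. The transform that made them is not given in the sources used here; the within-group SD falls towards 0 for low genes, unlike a plain log2 of counts. Counts were therefore not at hand and no interval for counting error was computed; the study's list of total reads for 5EL and 5ELKO was not used here. The number of libraries limits the precision, and a log2 difference understates the change of low genes.

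Libraries were grouped by the labels. In all, 105 pairs of libraries were compared and 0 were identical (r from 0.9986 to 0.9998). A gene entered a fit when its log2 value reached 3.32 in 4 of 9 libraries with 5xFAD (15743 genes) or in 3 of 15 libraries (15804 genes). Fits used limma 3.58.1 (R 4.3.3) with an empirical Bayes trend, 5ELKO against 5EL among the 9 and the other comparisons in 1 fit of the 4 groups, with Benjamini-Hochberg adjustment over all genes tested. A count model had been planned in case the files held counts. Exact permutation tests were two-sided over libraries, within Lilrb4a genotype for the averaged difference. The fit was tested on simulated data with 200 genes changed 2-fold: 98% were recovered for 5ELKO against 5EL. Changes as small as the differences of the members were not simulated, so this share does not tell how many of those would be found. Exonic lengths, neighbours and shared exon bases came from the annotation, promoters from RefSeq (GRCm38.p6), and figures from Python 3.11.15 and matplotlib 3.10.9.

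The members and all lists were chosen with earlier results of these data known. Named genes were the 10 members, overlapping or neighbouring genes, up to 3 genes per other list with the largest difference among those with a nominal p under 0.05, and the 5 genes most like the members. Tgfbr1, Lrrc3, Mef2c, Igf1, Il34, Cx3cl1 and Gad1 were named after their values had been seen. The same holds for the markers Pf4, Ms4a7 and Ccr2, which were below the level needed for testing. Libraries of EL and ELKO with the same number shared deviations from their group means (correlations 0.453, 0.325 and 0.742), which did not hold for every pair of numbers in the other comparisons; a replicate block changed no call between ELKO and EL. Alternatives were no filter, a stricter filter, a fit without trend, robust variance, recentring on library medians, other sets of libraries in the fit, values relative to the pan-microglia list, the replicate block, and leaving out each library. Some genes of the other lists are counted but not reported here by name.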

Additional observations from a re-analysis of the deposited data

How the results depend on the processing

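Under every alternative run, 0 members had an adjusted p under 0.05 in limma in any comparison. The counts at a nominal p under 0.05 moved as follows. With the replicate block, whose numbers were found to pair only EL with ELKO, 1 member was lower between 5ELKO and 5EL (Tmem119 -0.15), 1 was lower in the interaction (Tmem119 -0.25), 1 was higher between 5EL and EL (Sall1 no longer passed, 0.10), and 3 were higher in the averaged 5xFAD difference (Olfml3 no longer passed, 0.084). Relative to the pan-microglia list, 0 were higher between 5EL and EL, 0 higher and 1 lower between 5ELKO and ELKO (Tmem119 -0.28), and 0 higher and 1 lower in the averaged difference, with medians of -0.09, -0.02 and -0.07. Shares of all genes called relative to this list were not counted. Every gene carries the same shift there, so the calls do not set Tmem119 apart from other genes. With the libraries of the 2 groups only, or without both choroid plexus-high libraries (chosen after seeing the data), 1 member was higher between 5EL and EL. With recentred libraries, 3 members were higher between 5ELKO and ELKO, Csf1r (0.20) being added, and with the libraries of the 2 groups only the count was also 3, Olfml3 being added. Leaving out 1 library in turn gave 1 to 3 members higher between 5EL and EL, 2 to 5 between 5ELKO and ELKO and 3 to 5 in the averaged difference.

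These values changed sign, and the cause was not tested. With the replicate block they were between 5ELKO and 5EL Gpr34 -0.016 and Siglech -0.015, between 5EL and EL P2ry13 -0.025, between 5ELKO and ELKO P2ry12 -0.017, in the averaged 5xFAD difference P2ry12 -0.014, in the averaged deletion Tmem119 -0.026. With recentred libraries they were between ELKO and EL Olfml3 -0.011, between 5EL and EL P2ry13 -0.009, in the averaged deletion Tmem119 -0.0064 and Csf1r -1e-04. Relative to the pan-microglia list they were between 5EL and EL P2ry13 -0.21, Tmem119 -0.11, Cx3cr1 -0.083, Gpr34 -0.13, Siglech -0.13, Olfml3 -0.055, Sall1 -0.054 and Selplg -0.044, between 5ELKO and ELKO P2ry12 -0.13, P2ry13 -0.076 and Siglech -0.044, in the averaged 5xFAD difference P2ry12 -0.17, P2ry13 -0.14, Tmem119 -0.19, Gpr34 -0.052, Siglech -0.089 and Selplg -0.12, in the averaged deletion Cx3cr1 0.004. Without both choroid plexus-high libraries they were between 5EL and EL P2ry12 0.0016, in the averaged 5xFAD difference Tmem119 -0.053, in the averaged deletion Siglech 0.0003 and Selplg 0.023.

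Leaving out 1 library in turn, the sign changed within these ranges. Between 5ELKO and 5EL they were P2ry13 -0.033 to 0.049, Gpr34 -0.067 to 0.076, Siglech -0.058 to 0.055, Olfml3 -0.0007 to 0.16, Sall1 -0.0046 to 0.057 and Csf1r -0.096 to 0.049. Between ELKO and EL they were P2ry13 -0.16 to 0.012 and Olfml3 -0.054 to 0.066. Between 5EL and EL they were P2ry12 -0.091 to 0.089, P2ry13 -0.043 to 0.050 and Gpr34 -0.0083 to 0.18. Between 5ELKO and ELKO they were P2ry12 -0.017 to 0.18 and Selplg -0.0795 to 0.058. In the averaged 5xFAD difference they were P2ry12 -0.016 to 0.088 and Tmem119 -0.029 to 0.033. In the averaged deletion they were P2ry13 -0.075 to 0.012, Tmem119 -0.0305 to 0.033, Cx3cr1 -0.043 to 0.0103, Csf1r -0.025 to 0.047 and Selplg -0.045 to 0.015. In the interaction they were P2ry12 -0.029 to 0.19, Olfml3 -0.0068 to 0.15 and Csf1r -0.14 to 0.0035. Csf1r, Sall1, Cx3cr1 and Olfml3 kept a positive averaged 5xFAD difference in all of these fits. A term for Xist could not be fitted, since all 15 libraries fell in 1 class, read as male. Read counts per gene were not used here, and groups of 3 to 5 libraries limit the precision.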

Other observations

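In the averaged comparison with 5xFAD, the astrocyte list of 10 genes had 1 gene with a nominal limma p under 0.05, Gfap (1.08, standard error 0.22; adjusted p = 0.653), an intermediate filament of reactive astrocytes, and a median of 0.01. Neuron, oligodendrocyte and thalamus lists of 10 genes each had medians of -0.03, 0.02 and -0.10. At a nominal limma p under 0.05, 2 neuron genes were higher, where 3.56% of all genes were, and the other 2 lists had 0 genes. Gad1, of the neuron list, ranged from 8.60 in EL replicate 3 to 11.90 in 5ELKO replicate 3. The part of such differences between libraries in the members' values was not tested. Nrros, which encodes a protein that presents latent TGF-beta1 in microglia, had an interaction of -0.40 (standard error 0.13), with a difference of 0.24 between ELKO and EL. Igf1, a growth factor of the disease-associated list, had an interaction of 0.46 (standard error 0.17) and a difference of -0.31 between ELKO and EL (standard error 0.13). Both were the 1 gene of their list with a nominal p under 0.05 in the interaction, and both had an adjusted p of 0.9996 in limma.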
